A study of Mus musculus with 2 samples.

Results

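The 10 genes described here make, carry, break down or receive acetylcholine: Chat, Slc18a3, Slc5a7, Ache, Chrna3, Chrna4, Chrna7, Chrnb2, Chrm1 and Chrm3. They were chosen by symbol, and all 10 were found among the 43346 genes of the deposited tables. The tissue was central nervous system from C57BL/6J mouse embryos at day 18 of development, taken from littermates of both sexes that were pooled, with no treatment or altered allele named in the labels. Polyadenylated RNA was measured by strand-specific paired-end RNA-seq in 2 libraries, numbered biological replicates 1 and 2, which form 1 group. No second condition was measured, and 1 library against 1 allows no test between them. The labels give both libraries the same donor entry, and the files do not say which parts of the brain and spinal cord went into each.

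Acetylcholine is made in the nerve ending by choline acetyltransferase (Chat), packed into synaptic vesicles by the vesicular transporter (Slc18a3), and cut in the synaptic cleft by acetylcholinesterase (Ache). The freed choline is taken back up by the high-affinity choline transporter (Slc5a7). The signal is received by nicotinic receptors, which are ion channels of 5 subunits, and by muscarinic receptors, which act through G proteins. In the central nervous system the neurons that make acetylcholine are few, among them motor neurons, neurons of the basal forebrain and striatal interneurons, whereas neurons that carry its receptors are widespread.

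The sequences shown first are those of the locus that holds both Chat and Slc18a3, because the levels and junction reads of these nested genes are compared below. In the GENCODE annotation of GRCm38 (mm10), Chat lies on the minus strand at chr14:32408203-32465989. Slc18a3 is a gene of 1 exon at chr14:32462438-32464850, on the same strand and inside the first intron of Chat, which runs from chr14:32460914-32465806. The sequence directly upstream of each gene was taken from RefSeq (GRCm38.p6), 5′ to 3′ on the minus strand. For Chat it covers chr14:32465990-32466159, with the 80 bases nearest the RefSeq start left off because they lie in an annotated exon. For Slc18a3 it covers chr14:32464851-32465100. Capitals mark matches to 4 of the motifs searched: CCAAT, the GC box GGGCGG, and the E-boxes CACGTG and CAGCTG.
Chat: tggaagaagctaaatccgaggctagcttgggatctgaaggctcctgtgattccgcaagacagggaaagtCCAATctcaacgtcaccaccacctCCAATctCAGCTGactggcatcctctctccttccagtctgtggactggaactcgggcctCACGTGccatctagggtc
Slc18a3: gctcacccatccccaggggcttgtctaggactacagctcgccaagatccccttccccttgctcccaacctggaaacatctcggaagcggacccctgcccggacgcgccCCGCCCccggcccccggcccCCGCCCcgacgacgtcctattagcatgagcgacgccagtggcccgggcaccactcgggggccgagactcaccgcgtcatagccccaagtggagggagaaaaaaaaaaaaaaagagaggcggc

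The windows of the nested genes held different matches. In the 250 bases before its RefSeq start, the Chat window had CCAAT at positions -181 and -157, CAGCTG at -150 and CACGTG at -98, and no GC box. The Slc18a3 window had 2 GC boxes on the opposite strand, at -142 and -122, and no CCAAT. Its GC content was 66.0%, against 54.8% for Chat and a median of 52.4% over all 32851 promoter windows. RefSeq windows were found for 9 of the 10 genes, and the exception was Chrm1. The GC box, searched on both strands, was present in 5 of these 9 windows (Slc18a3, Ache, Chrna3, Chrna4 and Chrna7) and in 32.7% of all windows. Ache had the most copies, 4 within 50 bases of its start, and some of these overlap each other. CCAAT was found in 1 of the 9 (Chat) and in 33.8% of all windows, CACGTG in 3 (Chat, Ache and Chrna7) and in 6.02%, CAGCTG in 1 (Chat) and in 13.0%, and TATAAA in 1 (Slc5a7) and in 12.4%. These matches describe the letters and were not tested as binding sites.

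Among the 10 genes, transcripts of acetylcholinesterase and of the receptors were far more abundant than those of the genes that make and load acetylcholine. Levels are given in TPM, the share of a gene among all transcripts of a library after correction for length, scaled to a fixed total, which lets genes be set side by side. The mean level ran from 0.71 TPM for Chat to 39.0 TPM for Ache, a ratio of 54.9. Of the 10 genes, 9 had at least 1 TPM in both libraries, against 34.2% of all genes and 62.9% of protein-coding genes. Chat was the exception and was at 0.71 TPM in each library. In a bulk tissue, fewer cells of a type and less RNA per cell cannot be told apart.

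**Figure D1:**
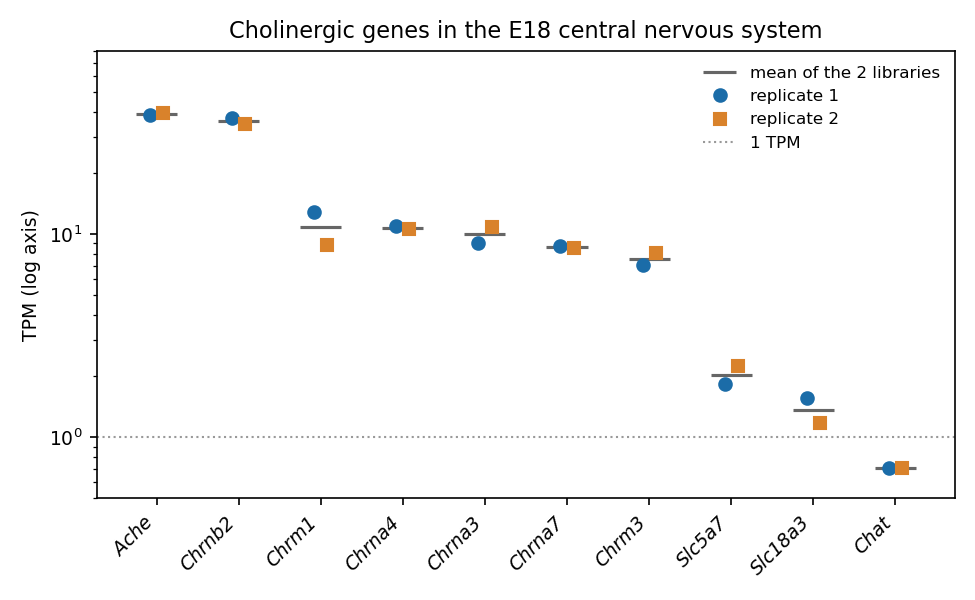
Level of each gene in TPM on a log axis, with 1 circle for replicate 1, 1 square for replicate 2, a bar at their mean and a dotted line at 1 TPM. Ache and Chrnb2 lie above 30 TPM, the other receptor genes between about 7 and 13 TPM, and the 3 genes of the cholinergic nerve ending below 2.5 TPM.

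The order of the levels was Ache, Chrnb2, Chrm1, Chrna4, Chrna3, Chrna7, Chrm3, Slc5a7, Slc18a3 and Chat. Chrm1 and Chrna4, Chrna4 and Chrna3, and Chrna3 and Chrna7 were neighbours whose gaps did not exceed the spread of the libraries. The other neighbours were separated in TPM, with ranges that did not overlap and a gap above the sum of their SDs. The place of Ache above Chrnb2 holds on the mm10 TPM values only: in CPM, fragments scaled to library size with no length correction, Chrnb2 was first in both libraries, and in the authors' RPKM values on mm9, an older length-corrected read density, Chrnb2 was also above Ache. Chrna7 and Chrm3 also changed places in CPM, with Chrm3 at 15.8 and 18.5 and Chrna7 at 10.5 and 10.6. Chrm1 moved from the third place to the seventh of 9 on the mm9 values, where Slc18a3 has no entry.

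Among the genes of acetylcholine synthesis and transport, Chat itself was the least abundant. Its 110 fragments in replicate 1 and 168 in replicate 2 gave 0.71 TPM in each, with intervals from the authors' quantifier of 0.575 to 0.837 and 0.605 to 0.820 TPM. Slc18a3 was at 1.57 TPM (207 fragments) in replicate 1 and 1.17 TPM (234 fragments) in replicate 2, a mean of 1.37 ± 0.283 (SD, n = 2). Slc5a7 was at 1.82 TPM (539 fragments) and 2.25 TPM (1010 fragments), a mean of 2.04 ± 0.304. Each of the transporters was above Chat in both libraries. Slc18a3 was higher in replicate 1 and Slc5a7 was higher in replicate 2, so the pair of transporters did not move together.

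The vesicular transporter exceeded the enzyme encoded around it. Chat over Slc18a3 was 0.452 in replicate 1 and 0.607 in replicate 2, a mean TPM ratio of 0.530 ± 0.109 (SD, n = 2). Slc5a7 over Chat was 2.56 and 3.17. A length-free version of the first ratio, from CPM, was 0.531 and 0.718, so the transporter stayed above the enzyme on that scale in both libraries.

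Reads that span introns showed where Chat transcripts were joined. The junction table is on mm9, and its replicate numbers are not tied to the libraries by the labels. Of the 15 introns of Chat in Ensembl 65, 14 were spanned by reads, between 4 and 33 each with a median of 11. The last 2 introns, next to the 3′ end, had 31 and 33 reads. The first intron, the one that holds Slc18a3, was spanned by 0 reads, and a count of 0 allows up to 3. No other junction into the second exon of Chat was recorded either. Of the 8 Chat transcripts annotated in GENCODE M21, 4 start upstream of Slc18a3 and 4 start downstream of it, and the gene table used a single Chat transcript.

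**Figure D2:**
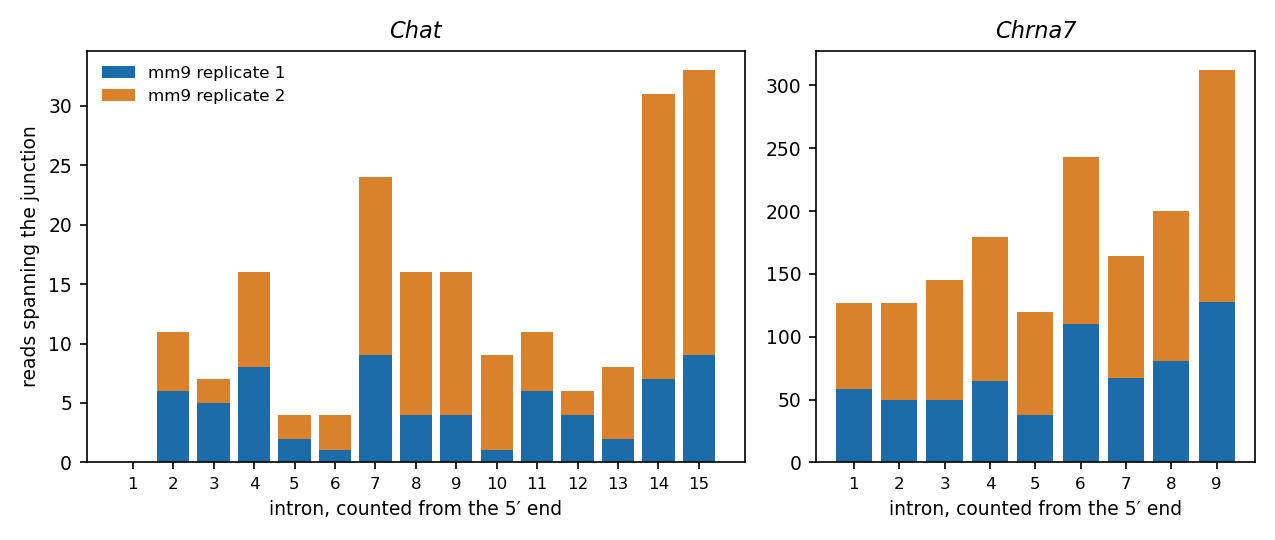
Reads spanning each intron of Chat (15 introns) and Chrna7 (9 introns), counted from the 5′ end, stacked for the 2 replicates of the mm9 junction table, with a linear axis of its own for each gene. The first Chat intron has 0 reads and the others 4 to 33, whereas all Chrna7 introns have 120 or more.

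The single-exon Slc18a3 and the spliced Chat lie on the same strand, so reads of unspliced Chat RNA over Slc18a3 would count as Slc18a3, and this was not tested. An antisense gene across Chat, Gm2990, had 32 and 31 fragments on the opposite strand.

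The genes listed for choline and acetyl-group metabolism, named here the choline supply list, spanned a wide range of levels. All 14 genes of the choline supply list were detected, summing to 771.9 TPM in replicate 1 and 749.2 TPM in replicate 2. The highest were Pld3, a member of the phospholipase D family by name, at 200.4 ± 4.73 TPM, Acly, which makes the cytosolic acetyl-CoA used in acetylation, at 135.8 ± 4.90 TPM, and Chka, a choline kinase, at 91.0 ± 2.98 TPM. The lowest was Pld1, a phospholipase D that frees choline from phosphatidylcholine, at 4.06 ± 0.573 TPM. None of the 14 reached a 2-fold difference between the libraries.

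Ache was the most abundant of the 10 genes in mm10 TPM, though not in CPM or on the mm9 values. It was at 38.5 TPM (5075 fragments) in replicate 1 and 39.4 TPM (7758 fragments) in replicate 2, a mean of 39.0 ± 0.615 TPM, above 69.0% of the detected protein-coding genes. The libraries differed by 1.01-fold, with a 95% counting interval of 0.978 to 1.05 that holds 1. Ache over Chat was 54.3 in replicate 1 and 55.5 in replicate 2. Over Bche, the gene of the related butyrylcholinesterase, Ache was 57.5-fold and 42.8-fold higher.

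The alternative 3′ end of Ache decides the form of the enzyme. Joining the fourth exon to the last exon gives the tailed form, whose C-terminal peptide is held by the anchor proteins PRiMA (Prima1) in brain and collagen Q (Colq) in muscle. This junction had 326 and 445 reads in the mm9 replicates, 771 in all. An acceptor nearer to the fourth exon, not in Ensembl 65, had 3 and 4 reads. The tailed junction therefore took 99.1% of the 778 spliced reads from that donor (exact Clopper-Pearson 95% interval 98.2 to 99.6%, counting error only). RNA that keeps the intron after this donor gives no junction read, so the share does not cover such RNA. Ache-208, a transcript annotated as a retained intron, is given with the transcript shares below. The tailed junction was named after its values were seen, since its minor partner is below the 5% set for naming. It joins chr5:137293314-137293337 to chr5:137294117-137294140 in GRCm38, both coding and on the plus strand, and its sequence from GENCODE M21 is given with the last 24 bases of the fourth exon in lower case and the first 24 bases of the last exon in capitals.
Ache exon 4 to last exon: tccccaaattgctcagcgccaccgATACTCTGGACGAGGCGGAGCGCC

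Of the anchors for this form, Prima1 was at 1.37 and 1.15 TPM and Colq at 0.05 and 0.27 TPM. The quantifier's bounds on these levels are wide, 1.22 to 43.7 and 1.00 to 30.5 TPM for Prima1 and 0.0842 to 4.94 and 0.283 to 3.38 TPM for Colq, so the levels of both are poorly fixed. Colq, which did not pass the filter on low counts, had 8 fragments in replicate 1 and 65 in replicate 2, a ratio of 5.39 with a counting interval of 2.58 to 13.0. The highest gene of the cholinesterase partner list was P4hb, a protein disulfide isomerase, at 121.4 ± 1.36 TPM. Of the list's 5 genes, 3 were detected.

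At the other end of the Ache gene, a choice between adjacent acceptors was split. The start of the second exon can lie at either of 2 acceptors that are 3 bases apart, both in the 5′ UTR, the downstream one 22 bases before the start codon. On mm9 chromosome 5 the introns run from 137729596 to 137731236 for the upstream acceptor and to 137731239 for the downstream one. The upstream acceptor took 71 of 208 reads (34.1%) in mm9 replicate 1 and 77 of 316 (24.4%) in mm9 replicate 2, a pooled 28.2% (24.4 to 32.3%). The transcript tables on mm10 gave a like split for the transcripts that differ there: Ache-202 was 35.0% of the sum of Ache-201 and Ache-202 in replicate 1 and 25.7% in replicate 2. Of the whole gene, Ache-201 held 54.7% and 61.4% of the TPM, Ache-202 29.5% and 21.2%, and Ache-208, which is annotated as a retained intron, 15.5% and 15.4%. By expected counts, with no length correction, the mean share of Ache-208 was 24.5% in place of 15.4%.

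**Figure D3:**
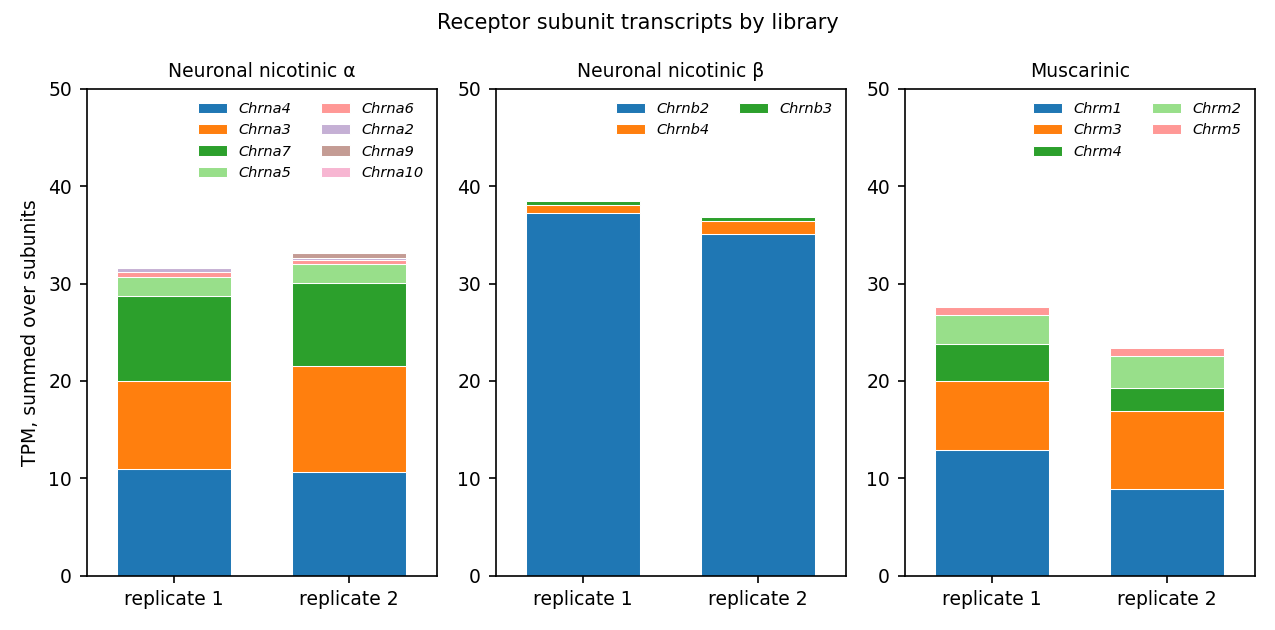
Summed TPM of neuronal nicotinic α subunits, neuronal nicotinic β subunits and muscarinic receptors in each library, with 1 colour per gene in stacked bars that start at 0. Chrnb2 fills nearly all of the β bars, Chrna4, Chrna3 and Chrna7 fill most of the α bars in near-equal parts, and the Chrm1 segment is smaller in replicate 2.

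Among the neuronal nicotinic subunits, Chrnb2 stood above every α subunit. Chrnb2, the β subunit that pairs with Chrna4 in the most common high-affinity nicotinic receptor of brain, was at 37.2 TPM (11509 fragments) in replicate 1 and 35.1 TPM (16403 fragments) in replicate 2, a mean of 36.1 ± 1.53 TPM. Chrna4 was at 10.9 TPM (2797 fragments) and 10.6 TPM (4133 fragments), a mean of 10.8 ± 0.212 TPM. Chrnb2 over Chrna4 was 3.41 in replicate 1 and 3.30 in replicate 2 in TPM, and it was 3.07 and 3.28 on the mm9 values. These are RNA ratios and say nothing of the make-up of the receptor. Chrnb2 overlaps Adar on the opposite strand. Adar had 18770 and 27234 fragments, and strand is recorded by the library kit, though the strand setting of the counting is not given in the sources used here.

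Chrna3 is the α subunit that pairs with Chrnb4 in autonomic ganglia and in the medial habenula. It was at 9.08 TPM (1583 fragments) in replicate 1 and 10.9 TPM (2872 fragments) in replicate 2, a mean of 9.98 ± 1.27 TPM. Chrnb4 was at 0.89 and 1.37 TPM, so Chrna3 was 10.2-fold and 7.94-fold above it. Chrna5, an accessory subunit that lies beside these genes, was at 1.94 and 2.02 TPM. Chrna3 and Chrnb4 were both higher in replicate 2, by 1.20-fold (counting interval 1.13 to 1.28) and 1.55-fold (1.30 to 1.86).

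Chrna7, which forms homomeric receptors with high calcium permeability, was steady between the libraries. It was at 8.72 TPM (983 fragments) and 8.52 TPM (1455 fragments), a mean of 8.62 ± 0.141 TPM. All of its 9 introns were spanned by reads, 120 to 312 each, and its leading splice pattern took 97.2% of the junction reads in the gene.

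A small share of Chrna7 junction reads skipped coding exons. From the donor of exon 2, 6 of 58 reads (10.3%) in mm9 replicate 1 and 2 of 83 (2.41%) in mm9 replicate 2 passed over exons 3 and 4 into exon 5, a pooled 5.67% (2.48 to 10.9%). The share is under 5% in mm9 replicate 2 alone and rests on 8 reads. The intron, mm9 chromosome 7 from 70255358 to 70356993, is in neither Ensembl 65 nor, by length, GENCODE M21. It leaves out exon 3 (45 bases), exon 4 (110 bases) and the first 5 bases of exon 5, 160 bases in all, which is not a multiple of 3, and the bases left out end in AG. The annotated and the skipping junctions are set side by side, built from GENCODE M21 Chrna7-201 on the minus strand, with exon 2 (chr7:63212108-63212131) in lower case and the exon it was joined to in capitals (chr7:63159558-63159581 for exon 3 and chr7:63110448-63110471 for exon 5).
Chrna7 exon 2 to exon 3: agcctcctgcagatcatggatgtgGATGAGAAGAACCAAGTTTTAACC
Chrna7 exon 2 into exon 5: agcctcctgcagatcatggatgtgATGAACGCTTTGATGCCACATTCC

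The 3 α subunits described here made up 90.8% of the summed TPM of 8 neuronal α genes in replicate 1 (31.6 TPM) and 90.6% in replicate 2 (33.1 TPM). Chrnb2 alone made up 96.7% and 95.1% of the 3 neuronal β genes. Of the 7 other neuronal subunits, 1 was detected in both libraries (Chrna5). Chrna6, a subunit of dopaminergic and retinal neurons, was at 0.51 and 0.34 TPM, and Chrna10, known from hair cells, was the lowest at 0.03 TPM in each. The other neuronal subunits had a median of 0.39 TPM in replicate 1 and 0.42 TPM in replicate 2.

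Genes that assemble or modulate nicotinic receptors were detected in 8 of 9 cases. Ly6h, a prototoxin of the Ly6 family that binds α7 receptors, was at 722.8 ± 2.37 TPM, far above every receptor gene. Ly6e was at 110.1 ± 11.7 TPM and Lypd1, another Ly6-type prototoxin, at 83.9 ± 6.22 TPM. The lowest of the list was Rapsn, which clusters receptors at the neuromuscular junction, at 0.37 TPM (16 fragments) in replicate 1 and 1.27 TPM (141 fragments) in replicate 2.

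The muscarinic genes differed from each other in how steady they were. Chrm1, a Gq-coupled receptor of forebrain neurons, was at 12.9 TPM (3170 fragments) in replicate 1 and 8.86 TPM (3359 fragments) in replicate 2, a mean of 10.9 ± 2.87 TPM. It was 0.703-fold in replicate 2 (counting interval 0.669 to 0.738), the largest difference among the 10 genes. Chrm3, the other Gq-coupled receptor here, was at 7.06 TPM (1487 fragments) and 8.07 TPM (2534 fragments), a mean of 7.57 ± 0.714 TPM. Chrm1 was thus lower in replicate 2 and Chrm3 higher, the latter by 1.13-fold (1.06 to 1.21), and Chrm1 over Chrm3 was 1.83 and 1.10. On the mm9 values this ratio was 1.24 and 0.774, so which of the pair is the higher depends on the gene model and the replicate.

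Chrm1 and Chrm3 made up 72.5% of the muscarinic TPM in each library, of a sum of 27.6 TPM in replicate 1 and 23.3 TPM in replicate 2. Chrm4, a Gi-coupled receptor of the striatum, was at 3.82 and 2.40 TPM, 0.633-fold in replicate 2 (0.533 to 0.750). Chrm2, which is also Gi-coupled, was at 2.94 and 3.23 TPM. Chrm5 was the lowest, at 0.82 and 0.78 TPM.

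Both muscarinic genes carry their coding sequence in a single exon, with alternative noncoding exons upstream. In Chrm1, on mm9 chromosome 19, a noncoding exon of 92 bases between 8739399 and 8739490 was joined in part of the reads. At the donor before it, 64 of 149 reads entered this exon (43.0%, interval 34.9 to 51.3%), 44.7% in mm9 replicate 1 and 40.6% in mm9 replicate 2. At the acceptor of the coding exon, 29 of 114 reads came from it (25.4%, 17.7 to 34.4%), 23.0% and 28.3% by replicate. The remaining 85 reads skipped it. More reads entered the exon than left it, 64 against 29, and the reason was not tested. In the mm10 transcript tables Chrm1-201 held 58.6% and 63.2% of the gene's TPM, Chrm1-202 27.6% and 26.5%, and Chrm1-203 13.8% and 10.3%. By expected counts the mean share of Chrm1-203, the shortest, was 2.47% in place of 12.0%, and that of Chrm1-202 was 39.6% in place of 27.1%.

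Chrm3 extended far beyond its older gene model. Ensembl 65 gives it 1 exon, while reads on mm9 chromosome 13 followed a chain of 4 introns whose lengths all match those of Chrm3-202 in GENCODE M21, a gene that spans 485.4 kb. From the 5′ end these introns had 175, 173, 129 and 211 reads, and the longest, next to the coding exon, is 149.4 kb. An internal noncoding exon of 47 bases in this chain was skipped by 57 reads. It was joined in 129 of 186 reads at the donor before it (69.4%, 62.2 to 75.9%) and in 211 of 273 at the acceptor after it (77.3%, 71.9 to 82.1%). In the mm10 tables Chrm3-202 held 76.5% of the gene's TPM in replicate 1 and 74.3% in replicate 2, and Chrm3-201 the other 23.5% and 25.7%. By expected counts the mean share of Chrm3-201 was 11.0% in place of 24.6%.

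**Figure D4:**
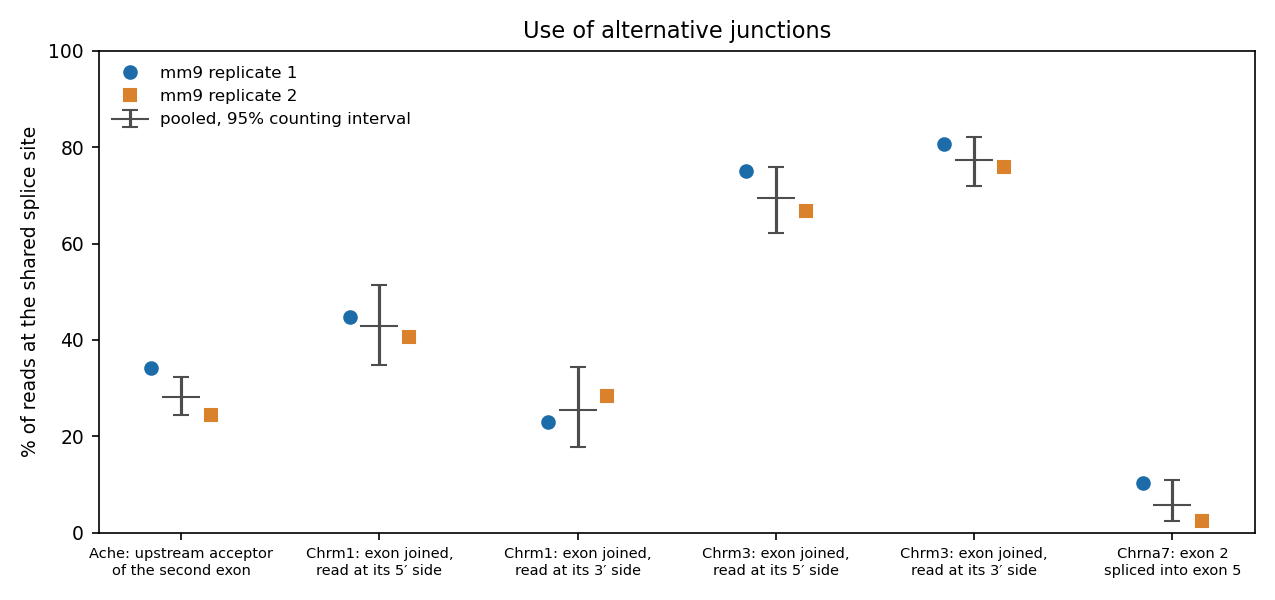
Share of the reads at a shared splice site that used each alternative junction, in percent, with points for the 2 mm9 replicates and a bar with the 95% exact counting interval for the pooled share. The Ache points of the replicates, 34.1% and 24.4%, lie at or beyond the 2 ends of the pooled interval, while the Chrm1 and Chrm3 points lie inside theirs. The Chrna7 point of mm9 replicate 2, 2.41%, lies just below the lower end of its interval, 2.48%.

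For the other genes the files held less on isoforms. Chrna4-201 held 98.2% and 98.5% of the Chrna4 TPM. Chat, Slc18a3, Slc5a7, Chrna3, Chrna7 and Chrnb2 have 1 transcript each in the mm10 tables, so those tables hold no information on their isoforms. The annotated introns of Chrnb2 had 585 to 1661 reads, those of Chrna3 164 to 361, those of Chrna4 53 to 308 and those of Slc5a7 6 to 80. The first intron of Slc5a7 had 6 reads and a shorter one into the same acceptor, with a length found in GENCODE M21, had 4, too few reads to give a share.

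None of the 10 genes differed 2-fold between the libraries. Of the 18677 genes past the filter on low counts, 3.58% did (2.64% higher and 0.937% lower in replicate 2). With only 10 genes, no call is close to that share and does not set them apart from other genes. The members' median log2 ratio, replicate 2 over replicate 1, was -0.0042, and that of all genes past the filter was 0.0020. For 4 of the 10 genes (Chat, Ache, Chrna4 and Chrna7) the 95% counting interval of the fold held 1. The smallest and largest folds were 0.703 for Chrm1 and 1.24 for Slc5a7 (1.12 to 1.38), with Slc18a3 at 0.750 (0.619 to 0.908).

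**Figure D5:**
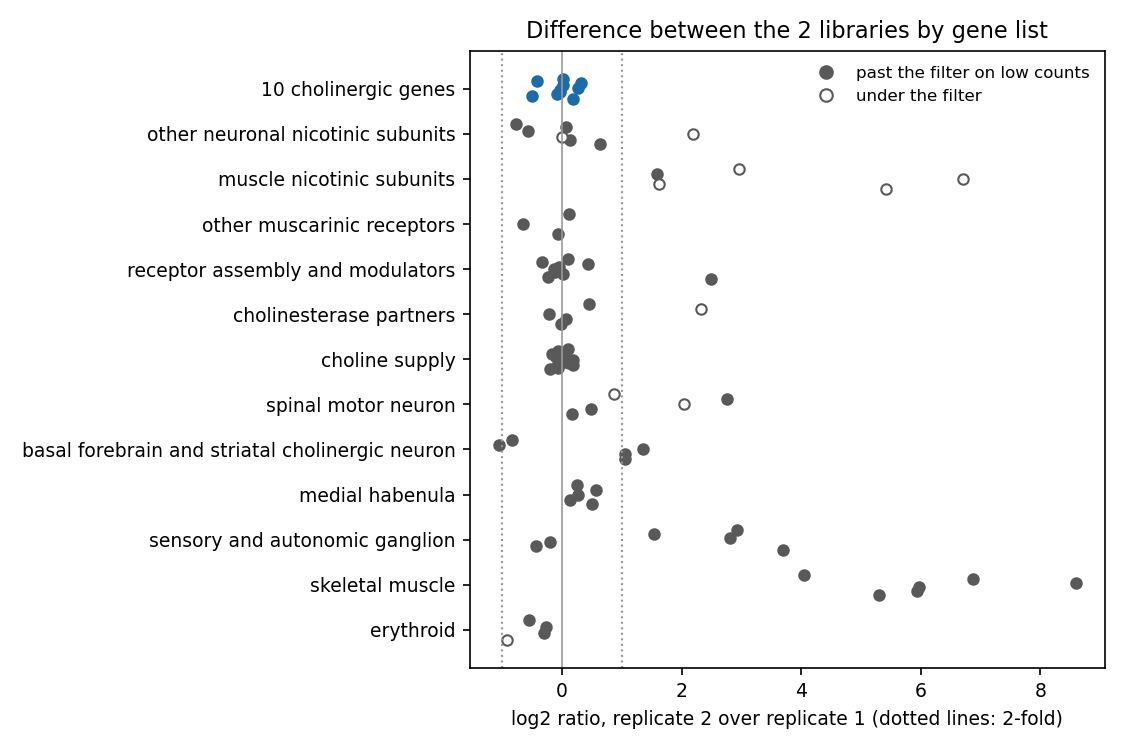
The log2 ratio of replicate 2 over replicate 1 for each gene, 1 row per list, with filled points for genes past the filter on low counts, open points for genes under it and dotted lines at a 2-fold difference. All 10 cholinergic genes lie between the lines, while all 6 skeletal muscle genes lie to the right of them.

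The libraries differed in markers of tissues that lie next to the central nervous system. All 6 skeletal muscle markers were at least 2-fold higher in replicate 2, and their sum was 13.2 TPM in replicate 1 and 488.6 TPM in replicate 2. None of them was at 0 in replicate 1, where Ckm, muscle creatine kinase, had 17 fragments. Of the 6 ganglion markers, 4 were at least 2-fold higher in replicate 2, with a sum of 14.2 against 60.0 TPM. The others were lower there. Pou4f2 was at 5.94 and 5.14 TPM (0.868-fold, 0.801 to 0.941). Dbh, the enzyme that makes noradrenaline, was at 1.39 and 1.02 TPM (0.735-fold, 0.603 to 0.896) and was named after its value was seen. The quantifier's bounds for Dbh overlap, 1.24 to 5.01 TPM in replicate 1 and 0.905 to 3.28 TPM in replicate 2, so its direction is poorly fixed. Prph, a neurofilament protein of peripheral neurons, was at 5.56 and 42.5 TPM.

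The muscle-type nicotinic subunits were higher in replicate 2 as well. Their summed level was 1.42 TPM in replicate 1 and 6.73 TPM in replicate 2, and Chrnb1, the β subunit of muscle, was at 1.27 and 4.05 TPM (3.02-fold, 2.47 to 3.72). Chrng, the fetal γ subunit, had 3 fragments against 245, a ratio of 54.2 with a counting interval of 18.3 to 264.4. Chrnd had 0 against 125, which is at least 27.6-fold higher in replicate 2 when set against a floor of 3 fragments in replicate 1, while the lower end of its 95% counting interval is 22.1-fold. Chrna1 had 7 and 90 fragments. Chrnb1 was the 1 gene of these 5 that passed the filter on low counts.

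Beside these shifts, Ache, which muscle also expresses, differed by 1.01-fold, and Chrna3, which ganglia express, by 1.20-fold. The part of muscle and ganglion RNA in the levels of Chrna3, Slc5a7 and Ache was not tested.

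Markers of cholinergic neuron groups did not move as 1 block. Of 5 motor neuron markers, 2 were detected in both libraries, Chodl at 5.86 and 8.23 TPM and Slit3 at 3.81 and 4.51 TPM, and the list summed to 10.1 and 15.1 TPM. Isl2, a transcription factor of motor and sensory neurons, was at 0.36 and 2.06 TPM (6.96-fold, 4.65 to 10.9). Mnx1, the defining motor neuron factor, had 0 fragments in replicate 1 and 1 in replicate 2, so RNA of that gene was not detectable at this depth. Of the 5 basal forebrain and striatal markers, 3 were at least 2-fold higher in replicate 2, Ngfr and Zic4 among them, and Gbx1 was at least 2-fold lower. Ngfr, the low-affinity neurotrophin receptor, was at 6.05 and 12.5 TPM. Lhx8, a transcription factor needed for forebrain cholinergic neurons, was at 14.5 and 8.0 TPM (0.559-fold, 0.514 to 0.608), and Gbx1 at 1.57 and 0.75 TPM. Lhx8, Gbx1, Chrm1, Chrm4 and Slc18a3 were lower in replicate 2, while Ngfr, Zic4, Slc5a7 and Chrm3 were higher and Chat differed by 1.01-fold. Whether regional make-up plays a part in any of these differences was not tested. Zic4, a zinc-finger transcription factor, was at 21.8 and 40.4 TPM, and the whole list summed to 45.5 and 65.5 TPM.

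The medial habenula holds some of the highest nicotinic receptor levels of the brain. Of its 5 markers 4 were detected, all but Chrnb3 at 0.39 and 0.42 TPM, and none of the 5 reached 2-fold. The highest were Irx2 at 13.9 and 22.2 TPM, Nhlh2 at 5.72 and 8.42 TPM and Tac2 at 4.27 and 5.01 TPM. The list summed to 27.9 and 40.4 TPM. Red cell RNA went the other way, with the 4 erythroid markers at a sum of 766.6 and 533.7 TPM and Hba-a1, an α-globin, at 537.9 and 345.7 TPM. Depth was 93979836 fragments on genes in replicate 1 and 137012773 in replicate 2.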

How the data were processed

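For the 2 libraries the authors deposited expected counts (estimated fragments), TPM and FPKM per gene and per transcript on mm10 with GENCODE M4, per the file headers and read-me texts; the authors also deposited each transcript's percent of its gene and the quantifier's TPM bounds. Tables on mm9 with Ensembl 65 held RPKM per replicate beside a gene score, exon positions and counts of reads per junction, all as deposited by the authors. No source used here names the aligner or the quantifier. Expected counts were rounded, entries that are no gene (3.62% and 4.01% of fragments) were left out, and log2 ratios were taken with edgeR 4.0.16 (TMM, prior count 1, filterByExpr) in R 4.3.3, checked on simulated data. A difference of 2-fold was called. Alternatives included DESeq2 1.42.0 size factors. Ratio intervals (R 4.3.3) and junction intervals (SciPy 1.17.1) are exact Clopper-Pearson at 95%. For ratios, the interval of the share of replicate 2 in a gene's fragments was turned into a fold. Intervals and floors cover counting error only. Junction shares needed 20 reads at a site and 5% for the minor junction. The mm10 gene models were matched to GENCODE M21 and promoters to RefSeq. Genes and lists were chosen with earlier results of these data known. Of each list beside the 10 genes, the text names the 3 highest by mean TPM, the lowest, and up to 3 with the largest ratio of at least 2-fold at a mean of 0.5 TPM or more. Some genes this rule selects are not reported here.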

Additional observations from a re-analysis of the deposited data

How the results depend on the processing

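With 2 libraries in 1 group, each mean rests on 2 values and no p-value was computed. No paired analysis was possible because the libraries form 1 group. The count of detected genes was 9, and it was 10 at 0.5 TPM, 7 at 2 TPM, 8 at an FPKM of 1 and 9 in either library alone. At an RPKM of 1 in both mm9 replicates it was 5 of the 9 genes with a value, on a scale whose values are lower throughout. The median level of the 10 genes was 9.30 TPM, 8.69 to 8.90 TPM in the single libraries, and 11.1 TPM after rescaling over nuclear genes, which multiplies each level by 1.19 to 1.20. Of the 45 pairs of genes, 42 kept their order in CPM, and of 36 pairs 31 did on the mm9 values. No gene reached 2-fold under any of the scalings tried. Transcript shares by expected counts in place of TPM stand beside the shares, and Chrm3-202 held 89.0% by counts. Chat over Slc18a3 on mm9 was not run, since Slc18a3 has no mm9 value.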
